A study of Mus musculus with 52 samples.

Results

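Erythroid cells sequenced singly after the first division of a BFU-E, the earliest committed red cell progenitor of the mouse, were ranked by the transcripts of 5 mitotic genes, Plk1, Ccnb1, Cdc20, Aurka and Cenpf. A cell was taken in when its library held at least 100000 counts, Gata1 reached 6.5 and Mpo stayed under 10 on the scale log2(CPM + 1), where CPM scales a gene's counts to a library of 1000000. Gata1 encodes the main transcription factor of the red cell lineage and Mpo a granule enzyme of neutrophil precursors. The rule took 37 of 52 libraries, from 20 of 26 founders. Each cell's score was its mean log2(CPM + 1) over the 5 genes, and the 18 cells above the median of 8.02 formed the high class and the other 19 the low class. The classes were chosen by these values, so the score and its 5 genes are described and not tested between the classes.

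The founders were sorted from fetal liver of C57/Bl6J mice at embryonic day 14.5 after depletion of cells with mature lineage, Sca-1, CD16/32 and CD41 markers, by Kit, transferrin receptor and CD24 staining. They were cultured singly in progenitor medium, either without addition or with 100 nM dexamethasone, a synthetic glucocorticoid. The sampled wells were those whose founder had divided once within 16 hours, and both daughters were sequenced separately as polyadenylated RNA. Of the cells taken in, 18 came from 10 untreated founders and 19 from 10 dexamethasone founders. The labels name no animal, so pairs may share an embryo, and the 2 cells of a pair are not independent replicates of a condition. Neither a DNA content nor a cell cycle stage is given for any cell.

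In dividing cells, transcripts of mitotic genes rise after DNA replication, peak at mitosis and fall again in the daughters. Cyclin B with Cdk1 starts mitosis, Plk1 and Aurora kinase A build the spindle poles, Cenpf is a large protein of the outer kinetochore and nuclear envelope, and Cdc20 turns on the anaphase-promoting complex (APC/C), which destroys cyclin B. Early erythroid progenitors divide fast. Many promoters of this gene group carry CCAAT boxes, bound by NF-Y, and a cell cycle genes homology region (CHR), bound by the MuvB complex with B-Myb or with the DREAM repressor.

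The promoters of the 5 score genes are shown because all 5 hold CCAAT letters and all but Ccnb1 hold CHR letters, features that the score did not use. The sequences are RefSeq promoters of the mouse build GRCm38.p6, in windows of 250 bases before to 50 bases after the start site. All 5 genes were matched by symbol. Each run below is 120 bases of the gene's own strand, 5′ to 3′, ending at the base before the outermost annotated start. Capitals mark CCAAT and, in Cdc20, the CHR letters TTTGAA.
Plk1, chr7:122159315-122159434, plus strand: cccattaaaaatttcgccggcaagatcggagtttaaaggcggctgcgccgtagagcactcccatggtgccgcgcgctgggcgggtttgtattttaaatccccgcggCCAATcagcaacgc
Ccnb1, chr13:100786571-100786690, minus strand: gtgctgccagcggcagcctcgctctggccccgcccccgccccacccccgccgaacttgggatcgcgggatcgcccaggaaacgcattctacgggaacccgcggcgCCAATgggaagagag
Cdc20, chr4:118437353-118437472, minus strand: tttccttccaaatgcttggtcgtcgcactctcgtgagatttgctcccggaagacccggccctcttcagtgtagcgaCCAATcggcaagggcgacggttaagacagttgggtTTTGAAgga
Aurka, chr2:172370571-172370690, minus strand: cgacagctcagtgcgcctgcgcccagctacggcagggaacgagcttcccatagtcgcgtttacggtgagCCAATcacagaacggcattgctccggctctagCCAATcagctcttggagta
Cenpf, chr1:189688087-189688206, minus strand: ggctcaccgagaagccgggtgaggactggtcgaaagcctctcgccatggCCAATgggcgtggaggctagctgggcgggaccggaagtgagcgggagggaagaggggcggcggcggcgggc

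In Plk1, Aurka and Cenpf the CHR letters lay at or just after the RefSeq start site, shown here in runs of 30 bases with TTTGAA in capitals.
Plk1, chr7:122159453-122159482, plus strand: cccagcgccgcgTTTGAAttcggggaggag
Aurka, chr2:172370521-172370550, minus strand: aaaaggagaaccTTTGAAttgtaacggctg
Cenpf, chr1:189688067-189688096, minus strand: ggcggcgggcagTTTGAAtcgctcgtgctg

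The letters TTTGAA or TTCGAA on either strand were found in 4 of the 5 score gene promoters, all but Ccnb1, and in 19.2% of all 32851 promoters of the same length. CCAAT on either strand was found in all 5 and in 37.4% of all promoters. The 2 motifs did not overlap in these 5 genes. Across 154 promoters of 133 matched genes of the mitosis lists described below, which hold no score gene, 52.6% held CHR letters and 63.0% held CCAAT. In the G1/S and replication list the shares were 21.1% and 56.3% of 71 promoters. A match is a description of letters and not of a bound site.

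The 5 genes were not equally high in the 2 classes. Ccnb1, which encodes cyclin B1, had medians of 9.24 log2(CPM + 1) in high and 9.19 in low cells. Its range was 7.78 to 10.07 in the high class and 1.18 to 10.25 in the low class. The 2 classes overlapped almost fully, apart from 3 low cells, both daughters of untreated pair 8 and a daughter of dexamethasone pair 11.

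Plk1, the polo-like kinase of mitotic entry, ranged from 7.91 to 10.54 with a median of 8.80 in high cells, and from 0.44 to 9.81 with a median of 8.28 in low cells. Cdc20 ranged from 8.79 to 10.24 (median 9.53) in high cells and from 1.69 to 10.04 (median 8.86) in low cells. Most low cells thus held Plk1 and Cdc20 within or close to the range of the high class. Aurka, which encodes Aurora kinase A, ranged from 6.97 to 9.57 (median 8.37) in high cells and from 0.56 to 9.90 (median 7.58) in low cells, with 5 low cells and 0 high cells under 10 CPM.

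Cenpf set the 2 classes apart more than any other score gene. It ranged from 3.21 to 8.37 log2(CPM + 1) with a median of 6.54 in high cells, against 0 to 8.48 with a median of 0.78 in low cells. Under 10 CPM stood 1 of 18 high cells and 15 of 19 low cells. In 11 low cells all score genes but Cenpf reached 10 CPM, 3 low cells held all 5 at that level, and the other 5 low cells held 1 to 3 of them. Leaving Cenpf out of the score moved 12 cells across the median, leaving out Plk1 or Aurka moved 2 each, and leaving out Ccnb1 or Cdc20 moved 0.

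**Figure D1:**
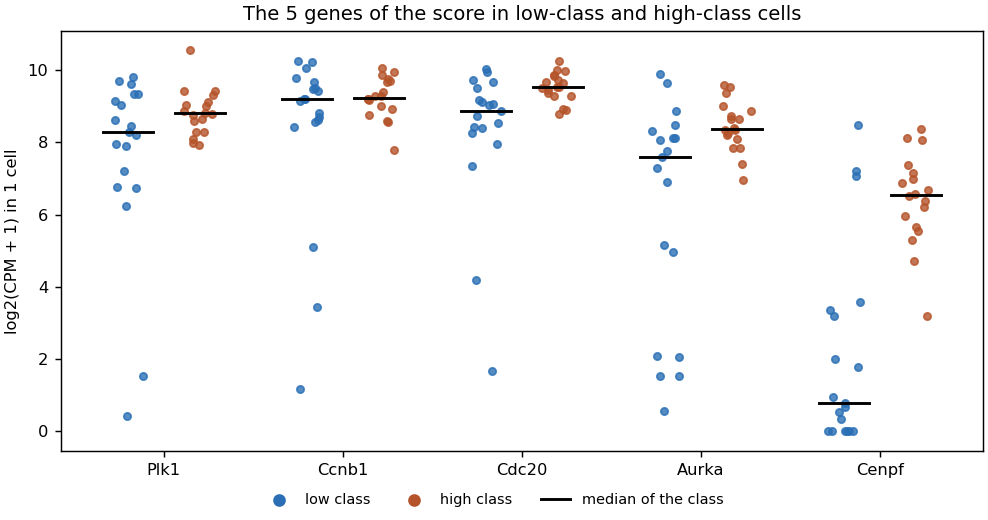
Each point is 1 cell, with its log2(CPM + 1) for the score gene named on the horizontal axis. Low-class cells (19, blue) and high-class cells (18, red) are side by side, and bars are class medians. Ccnb1 medians lie at 9.19 and 9.24, whereas Cenpf medians lie at 0.78 and 6.54.

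The label of high against low mitotic expression was therefore borne out only in part. Over the 37 cells, as a description, the Pearson correlation between 2 score genes ran from 0.0082 for Ccnb1 and Cenpf to 0.66 for Ccnb1 and Cdc20. Cenpf correlated at 0.22 with the mean of the other 4 genes, and Aurka at 0.67. The points share libraries and the same scaling to library totals.

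Scores were tightly packed in the high class and spread in the low class. High scores ran from 8.17 to 8.83, a range of 0.65, and low scores from 2.87 to 8.02, a range of 5.14. Just under and at the median stood 7.89, 7.99 and 8.02, all in untreated cells (pairs 13, 3 and 11), and just above it 8.17, 8.19 and 8.20 in dexamethasone cells (pairs 2, 3 and 13). In all, 16 of 37 cells lay within 0.5 of the median and 7 cells scored under 6. The 11 other libraries with at least 100000 counts, which fell short on Gata1 or exceeded the Mpo limit, scored 0.85 to 7.49 with a median of 3.05.

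Both classes carried red cell markers. Gata1 ranged from 7.48 to 9.77 log2(CPM + 1) in high cells and from 6.90 to 11.42 in low cells. Of 12 erythroid markers, 8 to 12 reached 10 CPM in high cells and 6 to 12 in low cells, with a median of 11 in each class. Mpo reached 9.12 and 8.82 in both daughters of dexamethasone pair 9, which are high cells just inside the limit, and 7.48 at most elsewhere. The lowest Mpo among the other deep libraries was 12.17.

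Markers of most other cell types were scarce. No cell had 3 or more markers at 10 CPM from the granulocyte and monocyte, mast cell, lymphoid, macrophage, hepatocyte, endothelial or stem cell lists. The megakaryocyte list reached 3 markers in 4 high and 8 low cells, with summed levels of 1.51 to 1188 CPM in high cells (median 164) and 5.72 to 2301 CPM in low cells (median 273). Of its 12 markers, Rap1b, a small GTPase found in many cells, reached 10 CPM in 14 high and 17 low cells, Itga2b, which encodes CD41, in 7 and 9, and each of the others in at most 7 cells in all except Gp1bb in 9. The defining platelet genes Ppbp and Pf4 stood at 0 in 37 and 36 of 37 cells. The part of these transcripts in any class difference was not tested.

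Library depth was alike and gene detection was not. Totals ran from 648110 to 4625454 counts in high cells (median 2900041) and from 225519 to 5606500 in low cells (median 2782836). Genes with at least 1 count numbered 6219 to 9034 in high cells (median 8183) and 5327 to 9089 in low cells (median 7483). When every cell was thinned to 200000 counts, with 0 cells left out, the medians were 6087 and 5385 genes. Over the 37 cells the score correlated with genes detected at r = 0.50 (Spearman's rho 0.36) and with log2 total counts at r = 0.087, both given as descriptions. The mean of the mitosis lists correlated with genes detected at r = 0.76. Detection thus moved with the score and with the mean of the mitosis lists. That mean falls where members stand at 0, and no list of other genes was set beside it. The r of 0.76 is therefore not shown to be particular to mitotic transcripts. The part of detection in the results below was not tested beyond the fits that hold it as a covariate.

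**Figure D2:**
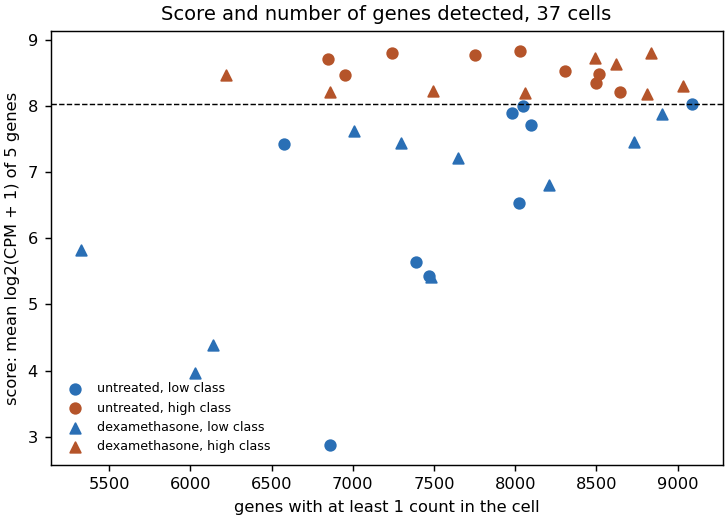
Score (mean log2(CPM + 1) of 5 genes) against the number of genes with at least 1 count, for 37 cells. Circles are untreated cells, triangles dexamethasone cells, red is the high class and blue the low class. The dashed line is the median score of 8.02, and the 3 cells of lowest score detected 6862, 6029 and 6140 genes.

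The 17 pairs with both daughters taken in showed how far a founder's progeny shared the score. In 7 pairs the daughters fell on both sides of the median, in 5 both were high and in 5 both were low. The remaining 3 pairs gave 1 cell each. Daughters differed by 0.90 ± 0.85 on average (SD, n = 17 pairs), from 0.21 in untreated pair 3 to 3.16 in untreated pair 5. Re-pairing cells at random within a treatment gave a mean difference of 1.55, so daughters were closer to each other than to other cells (two-sided permutation p = 0.0053 with 100000 re-pairings). Without dexamethasone pair 11, whose daughters both scored low, the difference from re-pairing shrank from -0.65 to -0.34 and did not pass (permutation p = 0.063). Re-pairing within a treatment and plate column gave 1.45 (permutation p = 0.014).

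The count of pairs on both sides did not show this. With 7 such pairs against 9.02 after re-pairing, the difference did not pass the test (two-sided permutation p = 0.62). The mean log2(CPM + 1) of the mitosis lists, which hold no score gene, differed by 0.41 between daughters against 0.84 after re-pairing (permutation p = 0.0001). Cells were re-paired within a treatment here and not within plate columns. That mean went with genes detected (r = 0.76), which differed between columns, and the part of detection was not tested.

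**Figure D3:**
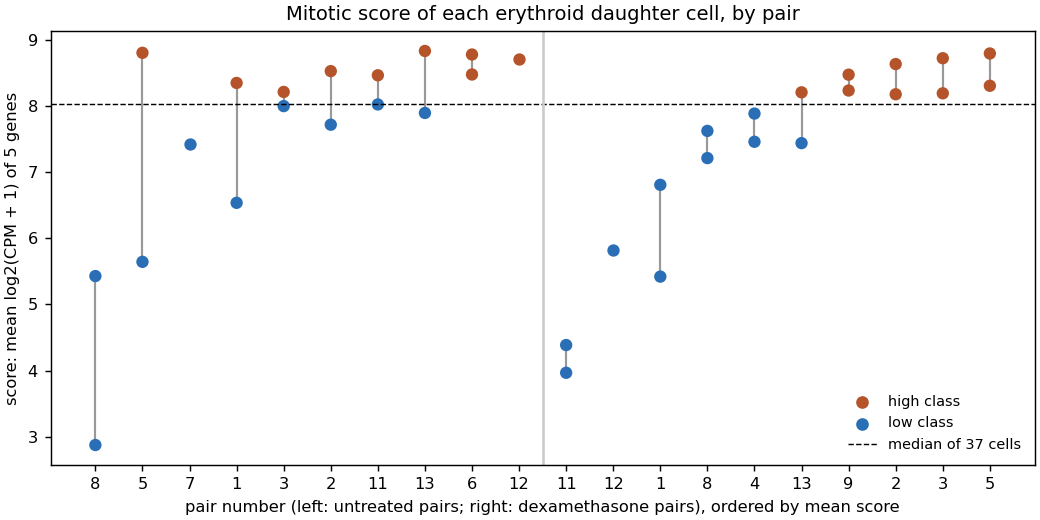
Score of each cell by founder, with untreated pairs on the left and dexamethasone pairs on the right, each ordered by the pair mean. A grey line joins daughters, red is the high class, blue the low class and the dashed line the median of 8.02. In 6 untreated pairs and 1 dexamethasone pair the line crosses the median.

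Daughters of untreated founders were split between the classes in 6 of 8 pairs and those of dexamethasone founders in 1 of 9 pairs. This contrast was chosen after its values were seen (two-sided Fisher's exact test p = 0.015). It depended on Cenpf. Without Cenpf in the score 2 of 8 untreated and 3 of 9 dexamethasone pairs were split (Fisher's exact p = 1), and without Plk1 5 of 8 and 2 of 9 (Fisher's exact p = 0.15). Leaving out Ccnb1, Cdc20 or Aurka left the counts at 6 and 1. Plate columns 1, 2 and 5 held only untreated cells and columns 3, 4 and 7 only dexamethasone cells. Only column 6 held both, so this contrast cannot be told apart from one between plate columns.

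Daughters differed by 1.28 ± 1.11 in untreated pairs (SD, n = 8) and 0.57 ± 0.34 in dexamethasone pairs (SD, n = 9), which did not pass the test (two-sided exact permutation p = 0.090). Among the split untreated pairs, pair 5 held scores of 8.80 and 5.64, pair 1 held 8.34 and 6.53, and pair 3 only 8.21 and 7.99. The crossing of the median therefore covers gaps from 0.21 to 3.16.

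The score itself did not differ detectably with treatment. Pair means were 7.64 ± 1.33 in 10 untreated pairs and 7.28 ± 1.45 in 10 dexamethasone pairs (SD), a difference of -0.36 (two-sided permutation p = 0.57). Each treatment held 9 high cells. In plate columns 1 to 4 the difference was 0.47 (7 against 6 pairs, exact permutation p = 0.58), and in columns 5 to 7 it was -1.89 (3 against 4 pairs, exact permutation p = 0.20). Column 7, which holds only dexamethasone cells, had 1 high cell of 5, a median score of 5.82 and a median of 6140 genes detected. The other columns had medians of 7.43 to 8.46 and 6954 to 8556 genes.

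Genes outside the rule were compared between the classes across 7548 genes, each with 5 or more counts in 10 or more cells, by edgeR's voomLmFit with the pair as a random effect. Only 2 genes passed an adjusted p of 0.05, which is 0.0265% of those tested, and both were higher in high cells. Hspa8, which encodes the constitutive Hsc70 chaperone, ranged from 11.65 to 12.99 log2(CPM + 1) (median 12.29) in high cells and from 11.55 to 12.94 (median 12.08) in low cells. Ftl1, the ferritin light chain, ranged from 11.20 to 14.36 (median 11.77) and from 10.99 to 13.18 (median 11.88). In both genes the classes overlapped almost fully.

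Neither call was stable. In 21 very abundant genes, these 2 among them, the fit gave the heaviest cell over 1000 times the weight of the lightest. The fitted log2 fold changes were 0.44 ± 0.03 (SE) for Hspa8 and 0.56 ± 0.08 for Ftl1. With weights limited to 16 they were 0.13 ± 0.12 and 0.11 ± 0.24 (limma adjusted p = 0.96 and 0.995). With limma-trend on log2(CPM + 1), which gives all cells the same weight, the calls numbered 0, with 400 genes at an unadjusted p under 0.05, 5.3% of those tested. The quasi-likelihood test of edgeR called 0 genes, with 111 at an unadjusted p under 0.05, 1.47%, and DESeq2 called 7, 0.0927%.

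At an unadjusted p under 0.05, 317 genes were higher in high cells, 4.2% of those tested, and 118 lower, 1.56%. Across all genes tested the median log2 fold change was 0.13 in this fit, 0.19 by limma-trend and -0.05 by the quasi-likelihood test. Fold changes of lists are therefore given beside these medians.

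The genes of smallest p in each direction were often absent from many cells of a class. Traf4, an adaptor of TNF-receptor signalling, reached 10 CPM in 13 of 18 high and 3 of 19 low cells (log2 fold change 4.62 ± 1.08 SE, voomLmFit adjusted p = 0.26). Zfp317, a zinc finger protein, did so in 15 high and 5 low cells. Apeh, an acylpeptide hydrolase, did so in 17 high and 12 low cells. In the other direction, Lbhd1 reached 10 CPM in 2 high and 11 low cells, Esyt1, a lipid transfer protein, in 8 and 16, and Ifitm2, an interferon-induced membrane protein, in 13 and 19. Tuba4a, an alpha tubulin, did so in 16 and 19. Tubb5, a beta tubulin and another of the genes with extreme weights, had medians of 11.82 log2(CPM + 1) in high and 12.08 in low cells. All 8 of these had an adjusted p of 0.26 or more.

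Mitotic genes outside the score lay above the median of all genes without any passing the test. Of 155 tested members of 7 mitosis lists (163 listed), 109 (70.3%) had a positive log2 fold change, against 56.5% of all 7548 genes, with a median of 0.50 against 0.13. None passed an adjusted p of 0.05, and at an unadjusted p under 0.05, 13 were higher and 3 lower, 8.39% and 1.94% of members against 4.2% and 1.56% of all genes. Limma-trend gave a median of 0.52 against 0.19. The quasi-likelihood test gave 0.08 against -0.05, with 85 of 155 members and 3473 of all genes positive, so the size of this shift depended on the method. Since the score genes are mitotic themselves and the lists were picked with earlier results known, the shift is not independent support for the label.

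In the list of mitotic kinases and the checkpoint 14 of 21 tested members were positive, with a median of 0.31 against 0.13 for all genes. By the quasi-likelihood test the medians were -0.06 and -0.05. Aurkb, the kinase of the chromosomal passenger complex, had medians of 7.97 log2(CPM + 1) in high and 8.03 in low cells. Cdk1, the partner of cyclin B, had 8.29 and 8.35, and Mad2l1, which holds back Cdc20, 7.72 and 7.70. Each of the 3 ranged lower in the low class, where 2 or 3 cells stood under 10 CPM against 0 high cells.

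Among cyclins and APC/C genes 12 of 18 were positive, with a median of 0.26. Ube2c, the ubiquitin-conjugating enzyme of the APC/C, ranged from 6.89 to 9.61 (median 8.81) in high cells and from 0.77 to 9.94 (median 8.14) in low cells, a log2 fold change of 1.12 ± 0.52 (SE, voomLmFit adjusted p = 0.83). Ccnb2, which encodes cyclin B2, had medians of 8.40 and 8.52. Pttg1, securin, had medians of 5.64 and 5.35, and Cks1b, a Cdk subunit, of 8.31 and 8.65, in the opposite order. The medians of the genes named here thus did not share one direction.

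Kinetochore and spindle genes had medians of 0.61 each, the highest of the mitosis lists in this fit, with 26 of 34 tested members positive in either list. By the quasi-likelihood test their medians were 0.08 and 0.15, and cytokinesis (0.47) and mitotic transcription (0.18) lay above them. Spc25, of the Ndc80 complex, ranged from 0.85 to 9.05 (median 7.10) in high cells and from 0 to 8.66 (median 6.65) in low cells. Cenpw, of the inner kinetochore, had medians of 6.65 and 6.00. Ckap5, a microtubule polymerase, reached 10 CPM in 14 high and 8 low cells (log2 fold change 3.30 ± 0.95 SE, voomLmFit adjusted p = 0.33). Tpx2, which activates Aurora kinase A, had a log2 fold change of 1.22 ± 0.80 (adjusted p = 0.92). Stmn1, a microtubule destabiliser, was among the negative members, at -0.58 ± 0.24 (adjusted p = 0.77).

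Cytokinesis genes were positive in 8 of 11, chromosome condensation genes in 18 of 27 and mitotic transcription genes in 6 of 11, with medians of 0.41, 0.41 and 0.34. Smc4, a condensin subunit, ranged from 7.15 to 9.23 in high cells and from 0 to 9.38 in low cells. Top2a, the topoisomerase that untangles chromosomes, had medians of 8.52 and 8.01 and a log2 fold change of -0.10 ± 0.61. Mki67, the Ki-67 surfactant of mitotic chromosomes, had medians of 8.32 and 7.98 and a fold change of -0.51 ± 0.84 (voomLmFit adjusted p = 0.99 for both). Mybl2, B-Myb, had medians of 7.31 and 6.27, and Foxm1 reached 10 CPM in 9 high and 5 low cells. These sentences describe levels that overlapped between the classes.

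**Figure D4:**
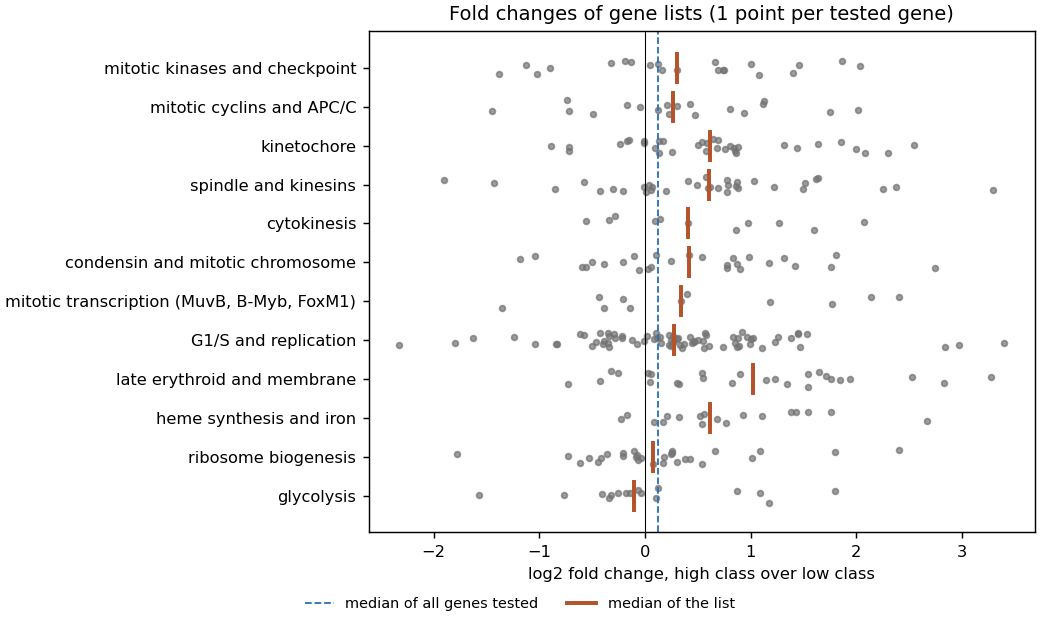
Log2 fold change of high over low cells in voomLmFit, 1 point per tested gene, for 12 gene lists that hold none of the score genes. Red bars are list medians and the dashed line is the median of all 7548 genes, 0.13. Medians run from -0.10 for glycolysis to 1.02 for late erythroid genes.

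In the G1/S and replication list 50 of 75 were positive (66.7%, median 0.28), about the level of the cyclin and APC/C list. Mcm2, of the replicative helicase, had a log2 fold change of 0.31 ± 0.26, Rrm2, a ribonucleotide reductase subunit, 0.25 ± 0.34, Pcna, the polymerase clamp, 0.23 ± 0.25 and Ccne1, cyclin E1, 1.00 ± 1.22 (SE, voomLmFit adjusted p of 0.93 to 0.97). Of the D cyclins, Ccnd3 had medians of 8.26 in high and 8.52 in low cells and Ccnd2 a fold change of -0.43 ± 0.36. Cdkn1b, which encodes the Cdk inhibitor p27, was at 0.18 ± 0.69.

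Late erythroid and membrane genes had a higher median than any mitosis list by voomLmFit (1.02) and limma-trend (1.09). By the quasi-likelihood test it was 0.44, below the 0.47 of cytokinesis. In the voomLmFit fit 22 of 26 tested members were positive (84.6%) and 0 passed an adjusted p of 0.05. At an unadjusted p under 0.05, 4 were higher (15.4%) and 0 lower, against 4.2% and 1.56% of all genes. Add2, of the membrane skeleton, and Gypc, a glycophorin, reached 10 CPM in 18 of 18 high and 13 of 19 low cells each. In heme synthesis and iron 16 of 18 were positive (median 0.62), with Ftl1 the 1 member called.

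Globins passed no test between the classes. Hba-a1, an adult alpha globin, ranged from 4.44 to 11.65 (median 7.88) in high cells and from 0 to 10.04 (median 6.44) in low cells. Hbb-bt, an adult beta globin, had medians of 4.34 and 5.19 and a log2 fold change of -1.32 ± 1.21 (voomLmFit adjusted p = 0.95). Reads of such near-identical copies may be split in an uncertain way. Klf1, the erythroid Krüppel-like factor, was at 0.39 ± 0.29, Kit, the stem cell factor receptor, at 0.33 ± 1.01, Myc at 0.14 ± 0.45 and the glucocorticoid target Tsc22d3 at 0.62 ± 1.38. Glycolysis, ribosome biogenesis and chaperone lists had medians of -0.10, 0.08 and -0.07.

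Because the classes cut a skewed score at its crowded end, the score was also used as a slope, an alternative partly added after the data were seen. By limma-trend on log2(CPM + 1) with the pair as a random effect, 91 of 7548 genes passed an adjusted p of 0.05, 1.21%, of which 90 rose with the score, 1.19%. The mitosis lists gave 10 of these, 6.45% of their 155 tested members. They were Ccnf, Ube2c and Anapc1 of the cyclins and APC/C, Spc25 of the kinetochore, Ckap2, Kif5b and Tubb4b of the spindle, Shcbp1 of cytokinesis, and Ncaph and Arl6ip1 of the condensation list. Kif5b is known as a cargo motor, and Tubb4b as a general tubulin.

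Ccnf encodes cyclin F, which marks substrates for destruction in late cell cycle. It ranged from 0 to 10.35 (median 8.31) in high cells and from 0 to 9.29 (median 6.81) in low cells, and rose by 1.65 ± 0.23 on the log2 scale per unit of score (SE, limma adjusted p = 6.5e-05). Ube2c rose by 0.95 ± 0.16 (limma adjusted p = 0.00070). The gene most like the score was 1700021F05Rik, with r = 0.84 over 37 cells, which ranged from 4.51 to 7.46 (median 6.07) in high cells and from 0 to 7.11 (median 5.42) in low cells and rose by 1.17 ± 0.15 per unit (limma adjusted p = 1.3e-05).

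The other genes most like the score, by Pearson r over 37 cells, were Ccnf (0.78), Ccdc12 (0.77), Golph3 (0.76), Ube2c (0.72), Immt (0.71), Pnrc2 (0.70), Kti12 (0.69), Arl6ip1 (0.69) and Cdca4 (0.69). Golph3, a Golgi phosphoprotein, reached 10 CPM in 17 high and 9 low cells, and Immt, of the mitochondrial inner membrane, in all 18 high and 18 of 19 low cells. All 10 rose in the slope fit, a direction that their choice by r with the score over the same cells had set. Psmb1, a proteasome subunit, was the 1 gene that fell, and is named because it was alone in its direction.

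**Figure D5:**
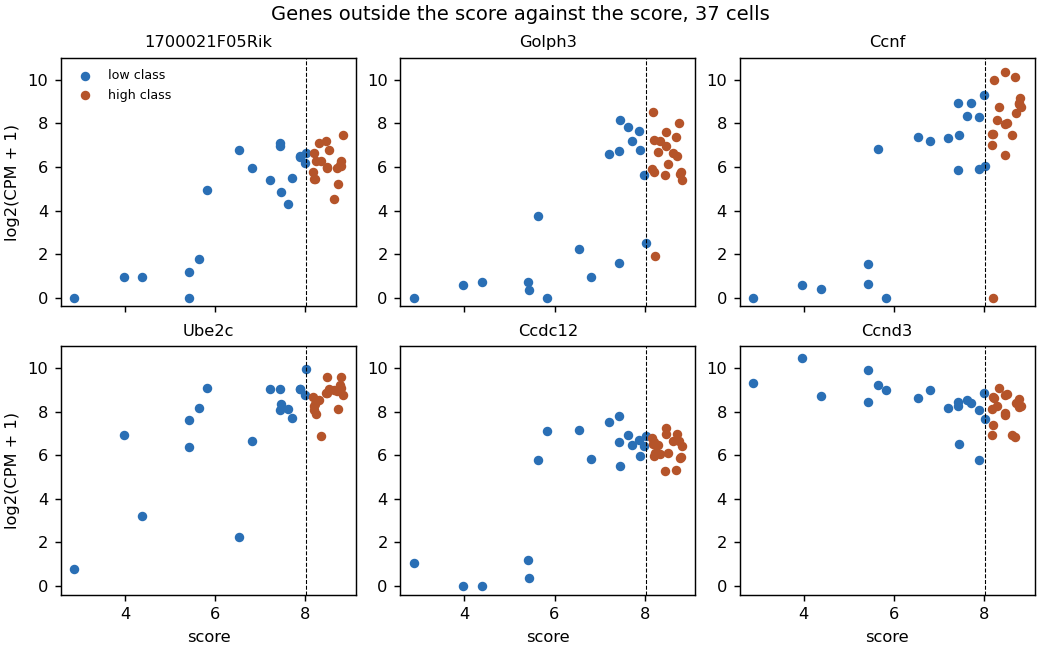
Log2(CPM + 1) of 6 genes outside the score against the score, with 1 point per cell (37 cells), red for the high class and blue for the low class, and the dashed line at the median of 8.02. In 1700021F05Rik, Ccnf and Golph3 the cells of lowest score lie near 0, and Ccnd3 levels stay above 5 in all cells.

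The slope calls depended on which cells were in the fit. Without the 3 cells of lowest score, a daughter of untreated pair 8 and both of dexamethasone pair 11, 6 genes passed (0.0806% of those tested), 3 of them among the 91, namely 1700021F05Rik, Ccnf and Golph3. Leaving out a pair gave 30 to 132 calls, and 8 genes passed in every one of these fits. The count fell by over 1.5 times without dexamethasone pairs 11 (30 calls), 3 (45), 5 (51) or 2 (56) and without untreated pairs 3 (54) or 2 (59). It was highest without untreated pair 8, which holds the cell of lowest score (132 calls, 50 of them among the 91). With genes detected as a covariate 18 genes passed (0.238%), 17 of them among the 91, and 4 of the 18 were in the mitosis lists. The planned slope by voomLmFit called 29 genes (0.384%), 16 higher and 13 lower, 14 of them among the 91. Of these 29, 0 were in the mitosis lists, so Ccnf and Ube2c were not called by the planned slope.

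The 7 pairs with a daughter on either side allowed a comparison within founders. Their high daughters scored 1.16 ± 1.01 above the low ones (SD), by construction. The mean of the mitosis lists differed by -0.12 ± 0.44 (high minus low daughter, SD), and was higher in the high daughter in 3 of 7 pairs. It was lowest in untreated pair 11 (-0.81) and dexamethasone pair 13 (-0.67). Their high daughters also had the largest deficits in genes detected (-2135 and -441). In untreated pairs 5 and 1, with the widest score gaps, it was 0.23 and 0.29. The part of detection was not tested. In the edgeR quasi-likelihood test with the pair as a block 0 of 4136 genes passed, 0%, and 25 were higher and 25 lower at an unadjusted p under 0.05, 0.604% each. The mitosis lists had 65 of 112 tested members positive, with a median of 0.07 against -0.07 for all genes. No difference of mitotic genes at large beyond the spread between these pairs was detected.

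Library measures of the daughters passed no test over all 7 pairs. Genes detected differed by -201 ± 923 (SD, n = 7, two-sided exact sign-flip p = 0.81), and log2 total counts by 0.28 ± 0.37 with 6 of 7 pairs higher in the high daughter (exact p = 0.11). The mitochondrial share differed by -0.17 ± 0.58 percentage points (exact p = 0.47) and the share of the 50 highest genes by -0.81 ± 3.01 percentage points (exact p = 1), although 6 of 7 high daughters were higher. Without untreated pair 11, the exception, that share differed by 0.32 ± 0.41 (higher in 6 of 6 pairs, exact p = 0.031, the smallest that 6 pairs allow) and genes detected by 122 ± 386 (exact p = 0.41). Without untreated pair 13 log2 total counts differed by 0.38 ± 0.30 (higher in 6 of 6 pairs, exact p = 0.031). Over all 7 pairs, the p-values adjusted over these 4 measures were 0.44 or more, and those with a pair left out were not adjusted. The smallest p that 7 pairs can give is 0.016.

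The class difference itself was compared between treatments in a fit with an interaction, in which 2 of 7548 genes passed, 0.0265%. Atg4a, a protease of autophagy, reached 10 CPM in 7 of 9 high and 0 of 10 low cells with dexamethasone, and in 2 of 9 high and 7 of 9 low untreated cells. The high against low log2 fold change was 9.56 ± 1.75 greater with dexamethasone (SE, voomLmFit adjusted p = 0.026). By limma-trend it was 6.59 ± 1.29 greater (SE, adjusted p = 0.048). Atg4a stood at 6.58 log2(CPM + 1) at most, with medians of 0 in dexamethasone low and untreated high cells. Its pseudogene Atg4a-ps shifted the same way and passed by limma-trend (adjusted p = 0.048) but not by voomLmFit (adjusted p = 0.056, or 0.063 with the plate column set added), and reads of such copies cannot be told apart here. Ftl1, the other gene, had a limma-trend adjusted p of 0.99. No mitosis list gene passed. The plate column set only separates the earlier columns from the later ones, and nearly every column held a single treatment. With or without that set, these interactions cannot be told apart from differences between plate columns.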

How the data were processed

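Per the submitters' processing notes, reads were handled with STAR 2.4 and featureCounts on the GRCm38 build, and the authors deposited raw counts per gene in 1 table per treatment. Settings for strand and for shared reads, and the library chemistry, were not stated in these sources, and no molecular identifiers are mentioned. Both tables held the same 49466 genes, and 0 columns of per-sample values were left unused. Counts were tested as deposited. Of the 52 libraries, 4 held under 100000 counts and 11 others fell outside the Gata1 or Mpo limit. The Mpo limit was read as log2(CPM + 1), since the rule gives no scale for it.

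Genes that reached 5 counts in 10 or more cells were fitted with voomLmFit of edgeR 4.0.16 (TMM scaling, R 4.3.3), with the 7 genes of the rule left out and the pair as a random effect (intra-pair correlation 0.13). P-values carry the Benjamini-Hochberg adjustment over all genes fitted, with a threshold of 0.05. Alternatives used limma 3.58.1, the quasi-likelihood test and DESeq2 1.42.0. Fits were tested on simulated data that held no pair effect and the same spread setting for every gene. Weights were not examined there, so that check does not vouch for the calls between the classes. Samples were grouped by the titles, and the pair number pairs cells because 1 founder gave both. No label gives the animal, so the tests measure how single founders varied. Gene locations came from GENCODE M21, which uses GRCm38. The members, the lists and the rule for genes to name were chosen with earlier results of these data known. That rule takes the 5 genes of smallest p per direction where fewer than 5 are called (predicted genes left out), up to 4 per list, 23 genes always and the 10 most correlated with the score.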

Additional observations from a re-analysis of the deposited data

Results flagged for a closer look

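Among 10 groups of pair values examined for a value standing far from the rest, of which chance flags about 1 in 20, 4 held one. The groups share pairs and the score is skewed, so that rate need not hold here. The pair mean score of untreated pair 8 was 4.15, against 7.22 for the next lowest of 10 untreated pairs. The daughters of dexamethasone pair 1 differed by 1.39 in score, against 0.77 for the next of 9 dexamethasone pairs. In untreated pair 11 the high daughter had fewer genes detected than the low one, a difference of -2135, against -441 for the next of 7 split pairs. The share of the 50 highest genes was 7.58 percentage points lower in that daughter, a difference of -7.58, against 0.0047 for the next pair.

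The class difference of 2 genes differed between treatments by an interaction term. For Atg4a the high against low log2 fold change was 9.56 greater with dexamethasone (voomLmFit adjusted p = 0.026, 0.012 with the plate column set added, and 0.048 by limma-trend). For Ftl1 the difference was -1.03 (voomLmFit adjusted p = 0.027), and 0.08 by limma-trend (adjusted p = 0.99). Ftl1 is one of the 21 genes with extreme weights. The plate column set added for Atg4a only separates the earlier columns from the later ones, and nearly every column held a single treatment. Neither interaction can therefore be told apart from a difference between plate columns.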

How the results depend on the processing

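The number of genes called between the classes, 2 in the planned fit, depended on nearly every choice. The quasi-likelihood test gave 0 calls without a replicate block (111 genes at an unadjusted p under 0.05) and 0 with the replicate block on the paired cells, limma-trend gave 0 (400 genes), DESeq2 7, TMMwsp scaling 1, library totals alone 4 and RLE 3. No filter gave 139 calls among 17532 genes and a filter of 10 counts in 0.5 of the cells 0. Covariates gave 5 (treatment and plate column set), 4 (genes detected) and 2 (log2 total). A Gata1 minimum of 7.5 gave 5. Untreated cells alone and dexamethasone cells alone gave 0 each, with 338 and 407 genes at an unadjusted p under 0.05. The score without Aurka gave 10 and without Cenpf 23, and by limma-trend 1 without Aurka and 0 without Plk1, Ccnb1, Cdc20 or Cenpf. The slope of the score gave 29 by voomLmFit and by limma-trend 91, 18 with genes detected and 6 without the 3 lowest cells. Weights limited to 16 gave 0. Without 1 pair at a time the planned fit gave 2 to 8 calls and limma-trend 0 to 1.

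Both calls also changed sign. Ftl1 was at -0.089 with the replicate block, -0.27 with treatment and plate set, -0.12 as a slope by voomLmFit and -0.049 by limma-trend, -0.30 in dexamethasone cells alone, and -0.74 (adjusted p = 5e-05) without Cenpf in the score, or -0.079 by limma-trend. Without 1 pair at a time it ran from -0.045 to 1.06. Hspa8 was at -0.019 in DESeq2 and -0.14 with RLE, and without 1 pair at a time ran from -0.23 to 0.57. The cause was not tested beyond the weights.

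The closeness of daughters held with the mitosis lists re-paired within a treatment and with the score re-paired within plate columns. It also held over 23 pairs with both libraries at 100000 counts or more (1.09 against 2.51 after re-pairing, permutation p = 6e-05). These pairs include libraries outside the Gata1 or Mpo limit (median score 3.05, against 8.02 within it). That result is therefore not one about erythroid daughters alone. Without 1 of the 17 erythroid pairs at a time, the difference from re-pairing ran from -0.76 to -0.34. The call was lost without dexamethasone pair 11 (-0.34, permutation p = 0.063), and p ran from 0.00076 to 0.030 without any other pair. It was lost as a count of pairs on both sides (-2.02 against re-pairing). The contrast of split pairs, -63.9 percentage points with dexamethasone, was -40.3 without Plk1 and turned to 8.33 without Cenpf and with the mitosis lists. The gap in score differences, -0.71, passed at -0.80 without Aurka. Without 1 pair at a time, the daughters' differences ran from 0.19 to 0.38 in log2 total counts, -333 to 122 in genes detected, -0.28 to -0.025 in mitochondrial share and -1.10 to 0.32 in the share of the 50 highest genes. The score did not pass the test between treatments in any of 10 alternatives. Pairs differing by at least 1 in score were too few (2) for a fit, since 0 genes passed the filter, so that alternative was not run. A level of 10 CPM is 27.8 counts in the median library and 2.26 counts in the shallowest, which limits what absence from that cell can show.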
